A study of Homo sapiens with 6 samples.

Results

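MYC binding at the genes of the ERBB receptors and their ligands was described from MYC chromatin immunoprecipitation sequencing (ChIP-seq) in MIAPaCa2, an established human pancreatic cancer cell line. The 10 genes were taken by name: the receptors EGFR, ERBB2, ERBB3 and ERBB4, the EGFR ligands EREG, AREG, HBEGF, TGFA and BTC, and the neuregulin NRG1, out of 20037 protein-coding genes on chromosomes 1 to 22, X and Y. A gene was called bound in a library when a peak of that library's deposited list overlapped the gene or the 1000 bp on either side of it by at least 1 bp. All cells went without serum for 48 hours. They then received medium conditioned by primary cancer-associated fibroblasts (CM, 2 libraries) or fresh serum-free DMEM (2 libraries) for 3 hours. The study has 6 samples, and the 2 inputs were not analysed here. The sources used here name neither the number of fibroblast donors nor separate cultures for the 2 libraries of a condition. The p-values come from reassigning these libraries to the conditions, and the spread between libraries may be technical. Peak lists do not measure expression, and the identity of the cells was not checked here.

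The transcription factor MYC pairs with MAX to bind DNA, typically near gene starts and at E-box sequences such as CACGTG. ERBB receptors are tyrosine kinases of the cell surface that signal as dimers. EGFR is bound by amphiregulin (AREG), epiregulin (EREG), betacellulin (BTC), HB-EGF (HBEGF) and TGF-alpha (TGFA), while neuregulin 1 (NRG1) binds ERBB3 and ERBB4. ERBB2 has no known ligand of its own and acts as a partner of the others, and ERBB3 has a weak kinase. In pancreatic tumours, signals from fibroblasts and EGFR signalling are both known to act on the cancer cells.

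The windows below, from RefSeq on GRCh38.p14, run from 250 bases before to 50 bases after the annotated start of the 4 members whose start window overlapped a peak in both CM libraries, as 32.9% of 22199 such windows of protein-coding genes did. They are shown because they hold the start peaks described below, and capitals mark the bases inside peaks of both CM libraries. The windows are EREG at chr4:74364895-74365194 on the plus strand, HBEGF at chr5:140346554-140346853 on the minus strand, BTC at chr4:74794474-74794773 on the minus strand, and the first start of EGFR at chr7:55018767-55019066 on the plus strand.
EREG: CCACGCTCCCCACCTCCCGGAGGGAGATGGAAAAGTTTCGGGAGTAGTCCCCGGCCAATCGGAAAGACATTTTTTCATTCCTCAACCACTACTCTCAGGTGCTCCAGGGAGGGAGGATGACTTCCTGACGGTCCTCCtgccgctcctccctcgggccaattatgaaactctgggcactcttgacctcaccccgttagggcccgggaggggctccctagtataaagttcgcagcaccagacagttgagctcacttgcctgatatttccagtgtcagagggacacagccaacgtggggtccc
HBEGF: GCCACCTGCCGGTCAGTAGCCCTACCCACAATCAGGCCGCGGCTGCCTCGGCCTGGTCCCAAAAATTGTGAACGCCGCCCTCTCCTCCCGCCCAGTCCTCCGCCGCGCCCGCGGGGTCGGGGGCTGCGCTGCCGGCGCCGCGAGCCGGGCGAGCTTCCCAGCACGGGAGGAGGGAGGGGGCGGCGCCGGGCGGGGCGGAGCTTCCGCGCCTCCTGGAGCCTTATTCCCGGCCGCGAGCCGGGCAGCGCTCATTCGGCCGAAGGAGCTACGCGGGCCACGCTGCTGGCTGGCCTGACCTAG
BTC: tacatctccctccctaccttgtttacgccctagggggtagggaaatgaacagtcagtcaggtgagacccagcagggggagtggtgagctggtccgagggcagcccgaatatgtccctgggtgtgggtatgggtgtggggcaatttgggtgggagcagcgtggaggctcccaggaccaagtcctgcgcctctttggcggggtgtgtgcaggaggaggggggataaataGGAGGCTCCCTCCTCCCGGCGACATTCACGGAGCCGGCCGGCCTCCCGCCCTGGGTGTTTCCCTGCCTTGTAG
EGFR: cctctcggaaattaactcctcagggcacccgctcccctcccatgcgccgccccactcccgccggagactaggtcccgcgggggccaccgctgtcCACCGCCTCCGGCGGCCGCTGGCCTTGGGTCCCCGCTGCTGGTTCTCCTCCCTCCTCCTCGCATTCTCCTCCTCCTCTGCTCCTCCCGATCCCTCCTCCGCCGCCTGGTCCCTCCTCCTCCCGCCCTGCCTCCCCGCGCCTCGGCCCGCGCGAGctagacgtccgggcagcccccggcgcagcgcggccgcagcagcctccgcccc

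Of the 10 genes, 6 had a peak in at least 1 library. EGFR and ERBB3 were bound in all 4 libraries, EREG and BTC in both CM libraries but no DMEM library (CM-only), HBEGF in both CM libraries plus 1 DMEM library, and ERBB2 in 1 library of each condition. In all, 5 of 10 members had a peak in both CM libraries, against 43.3% of all protein-coding genes. AREG, TGFA, ERBB4 and NRG1 had no peak in any library, and no member was bound in DMEM alone. Among all protein-coding genes, 18.0% were bound in all 4 libraries, 13.6% in both CM and 1 DMEM library, 11.7% were CM-only, 0.0% were DMEM-only, 6.85% had another pattern and 49.8% had no peak. In a list of 10 genes, the 2 CM-only members (20.0%) and the 2 members bound in all 4 libraries (20.0%) are not read as differing from these shares.

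**Figure D1:**
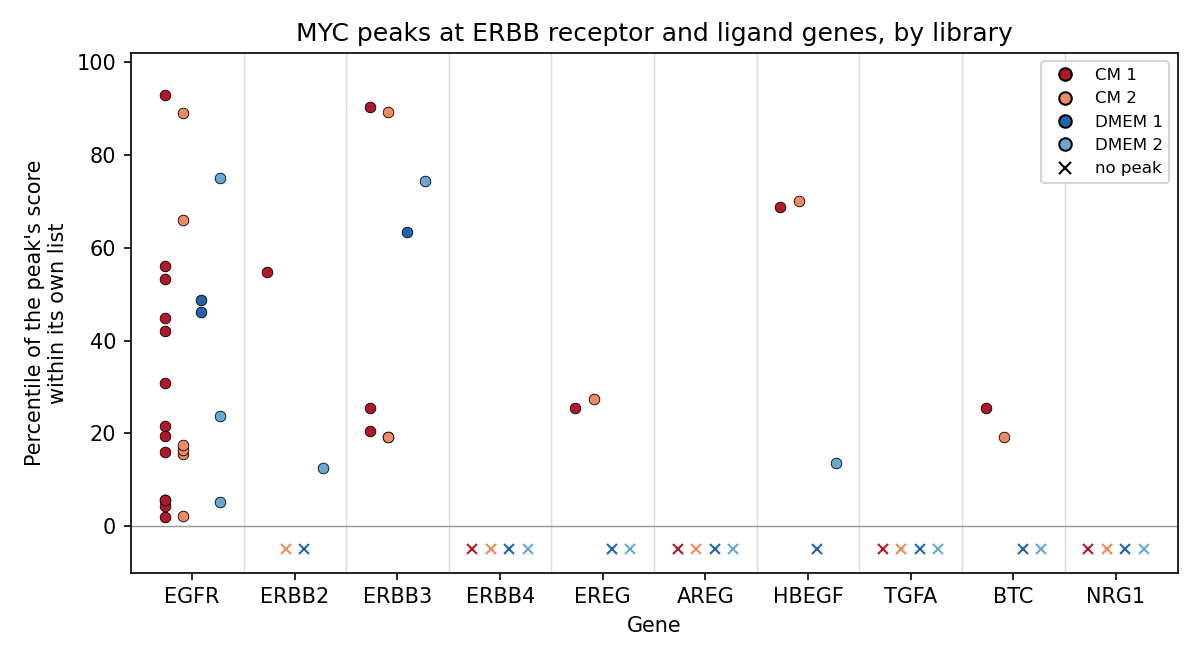
Percentile of each peak's score within its own list (y axis, 0 to 100) for every peak in or within 1000 bp of the 10 genes (x axis), 1 point per peak and 1 colour per library, with a cross where a library had no peak. The highest points stand at EGFR and ERBB3, at percentiles of 89.1 to 92.9 in CM, while EREG and BTC have CM points at 19.3 to 27.4 and no DMEM point. The highest ERBB3 points are peaks outside the gene that cover the start of PA2G4.

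The member genes with a peak numbered 6 and 5 in the CM libraries and 2 and 4 in the DMEM libraries. The CM counts were above both DMEM counts, by a mean difference of 2.5 genes (5.5 ± 0.707 in CM against 3.0 ± 1.41 in DMEM, SD, n = 2 each; exact two-sided permutation p = 0.333, the smallest that 2 against 2 libraries allow). These peaks numbered 20 and 12 in CM and 3 and 6 in DMEM, a mean difference of 11.5 peaks (exact permutation p = 0.333). The whole lists also differed in length, with 15304 and 12797 peaks in CM and 4657 and 7652 in DMEM, and the read depth behind them is unknown. Of all protein-coding genes, 48.1% and 45.2% had a peak in the CM libraries and 19.0% and 31.6% in the DMEM libraries. The mean difference in genes was 1.5 without DMEM library 1, and that in peaks was 7.5 without CM library 1. With each list held to its top 4657 peaks by score, the differences were 0.5 genes and 0.5 peaks. No member was CM-only there, where only 1.99% of all protein-coding genes were.

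The median peak at these genes ranked below the middle peak of its list in each library. The score is the authors' own value per peak, and its percentile is its rank within its own list, with 100 the highest. The median percentile of the members' peaks was 25.5 and 19.3 in CM and 48.7 and 18.7 in DMEM, where the middle peak of any list stands at 50. These medians rest on 20 and 12 peaks in CM and 3 and 6 in DMEM. Of these peaks, 13 and 6 in CM and 2 and 3 in DMEM were at EGFR. Since the lists differ in length, a percentile in CM and one in DMEM are given side by side and show no change.

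EGFR, the receptor of most of the ligands, carried the most peaks of the 10 genes in each library. Its gene spans 192612 bp of chromosome 7, from 55019017 to 55211628 (GRCh38), and held 13 and 6 peaks in CM and 2 and 3 in DMEM. In CM library 1, 12 protein-coding genes (0.0599%) had at least as many peaks, and in CM library 2 there were 51 (0.255%). In DMEM the shares were 5.24% and 1.47%. Among the 2583 genes of 100000 to 300000 bp, 0.232% and 0.852% reached the EGFR count in CM and 5.65% and 2.21% in DMEM. This comparison was chosen after the EGFR counts were seen and has no test.

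The highest-ranked peak inside EGFR lay about 55 kb downstream of the start, in all 4 libraries. Its percentiles were 92.9 and 89.1 in the CM lists and 48.7 and 75.0 in the DMEM lists. CM library 1 had it from 55073072 to 55075369, and CM library 2 from 55073654 to 55074805. The DMEM library 1 peak ran from 55073798 to 55074049, and the DMEM library 2 peak from 55073747 to 55074377. The 4 peaks overlap one another, and both CM peaks, of 2298 and 1152 bp, were wider than both DMEM peaks, of 252 and 631 bp. Peaks of the whole lists were also wider in CM, where the median was 691 and 593 bp, than in DMEM, where it was 430 and 431.5 bp. The annotation used here gives no exons, so the position within an intron or exon is not stated.

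The start of EGFR had peaks in the 2 CM libraries and DMEM library 2. CM library 1 had 2 peaks there, at percentiles of 21.5 and 53.2, and CM library 2 had 1, at percentile 66.0. DMEM library 2 had 1 peak of 395 bp at percentile 23.8, and DMEM library 1 had none. The DMEM peak was centred 623 bases downstream of the start and did not reach the printed window, of which the CM peaks covered 248 and 206 of 300 bases. The peaks at the start also lie within 1000 bp of the start of LOC105375284, at 55018922. This long noncoding RNA gene is on the minus strand.

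Further into the gene, EGFR peaks were mostly called in CM library 1. Merging overlapping peaks of the 4 libraries gave 13 intervals at EGFR, of which 2 had peaks of all 4 libraries, 1 of both CM and 1 DMEM library, 1 of both CM libraries and 9 of 1 CM library only. Of all 16235 merged intervals, 20.6% were in all 4 libraries, 18.4% in both CM and 1 DMEM library, 21.8% in both CM libraries alone, 36.0% in 1 CM library alone, 1.2% in 1 DMEM library alone, 0.0185% in both DMEM libraries alone and 1.94% in another pattern. The other interval with peaks of all 4 libraries lay 113.0 to 115.2 kb from the start. There the peaks were at percentile 56.1 in CM library 1 and 16.5 and 17.4 in CM library 2, against 46.1 in DMEM library 1 and 5.12 in DMEM library 2. The peaks of the 2 DMEM libraries in it do not overlap each other, and that of DMEM library 1 overlaps the peak of CM library 1 alone. No peak of any library lay beyond 115.2 kb, in the last part of the gene.

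A second annotated EGFR start lies at 55109839, inside the gene. CM library 1 had a peak from 55108956 to 55109715 (percentile 44.8), and CM library 2 one from 55109346 to 55109579 (percentile 2.27). Both end upstream of that start, and neither DMEM library had a peak there. Just downstream of it, CM library 1 alone had another peak, from 55109872 to 55110109, at percentile 4.3.

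**Figure D2:**
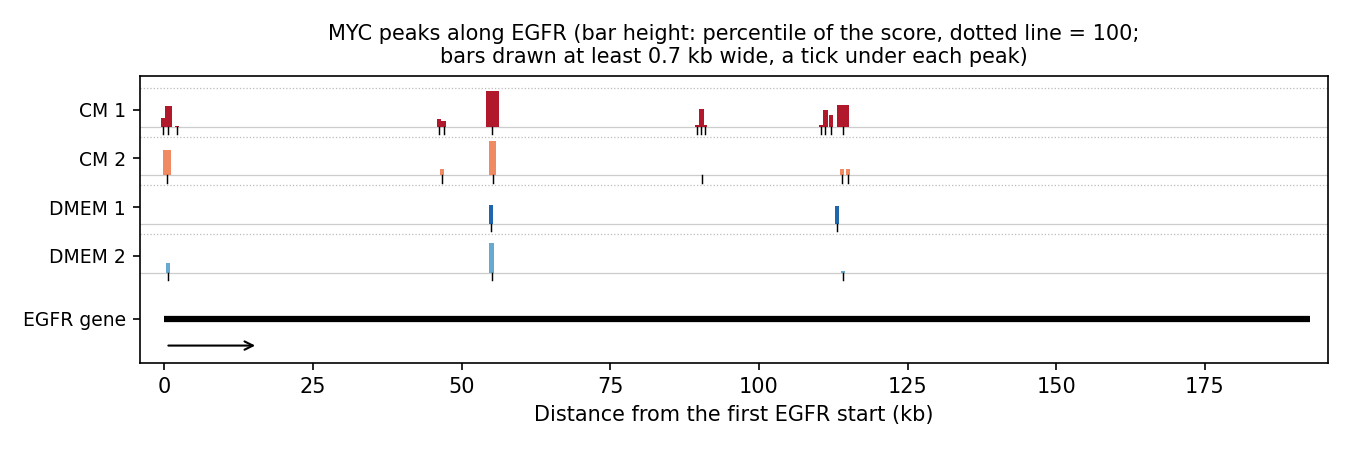
Peaks along EGFR, with distance from the first annotated start in kb on the x axis and 1 row per library, CM above DMEM. Bar height is the percentile of the peak's score in its list, and the black line is the gene. The bars near 55 kb appear in all 4 rows, those at the start in 3 rows, and most others in the row of CM library 1.

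ERBB3, the kinase-weak partner of ERBB2, was called bound in all 4 libraries through peaks that lie wholly beyond its high-coordinate end. The gene lies on chromosome 12 at 56080108 to 56103505. The highest-ranked peak there was at percentiles of 90.4 and 89.2 in CM and 63.5 and 74.5 in DMEM. In CM library 1 it spanned 56103594 to 56106127, starting 89 bp beyond the gene, and CM library 2 had it from 56104183 to 56105985. DMEM library 1 had it from 56104201 to 56104680 and DMEM library 2 from 56104049 to 56104716. A further, lower peak of CM library 2 lay nearer the gene, from 56103799 to 56104061, at percentile 19.3. All of these peaks also lie within 1000 bp of LOC105369782 and of the start of PA2G4. PA2G4, on the plus strand at 56104559 to 56113910, encodes the ErbB3-binding protein EBP1. The highest-ranked peak covered the PA2G4 start in all 4 libraries, so these peaks cannot be assigned to ERBB3 by position. With a window of 500 bp in place of 1000 bp, the DMEM peaks no longer counted for ERBB3, and the gene was CM-only. At the other end of ERBB3, CM libraries had peaks and DMEM libraries had none. Those of CM library 1 were centred at -894 and -319 bp from that end, at percentiles of 20.5 and 25.5, and that of CM library 2 at -593 bp, at percentile 19.3.

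ERBB2 had 1 peak in CM library 1 and 1 in DMEM library 2, at different places. The CM peak lay inside the gene at chromosome 17, 39700007 to 39700844, centred 12.3 kb from the start, at percentile 54.9. The DMEM peak spanned the start itself, from 39687908 to 39688264, at percentile 12.6. It also covered the start of PGAP3, a gene on the minus strand that starts at 39688057. CM library 2 and DMEM library 1 had no peak at ERBB2, so neither position was called in both libraries of a condition. The nearest peak of CM library 2 lay 1.33 kb beyond the high-coordinate end of ERBB2, at percentile 8.08. That peak lies inside the gene MIEN1, and a window of 2500 bp takes it in. ERBB4, with 1163086 bp on chromosome 2, had no peak. The nearest peaks to it were 898 and 613 kb away in CM and 2770 and 1370 kb away in DMEM.

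Among the EGFR ligands, the HBEGF start had the highest-ranked peaks. HB-EGF is made as a membrane-bound precursor and released by cleavage. Its gene lies on chromosome 5 at 140332843 to 140346603, on the minus strand. The peaks were at percentiles of 68.8 and 70.0 in CM and 13.6 in DMEM library 2, while the nearest peak of DMEM library 1 lay 158 kb from the gene. CM library 1 had its peak from 140346152 to 140347251 and CM library 2 from 140346058 to 140346974. Both covered all 300 bases of the printed window, against 226 bases under the DMEM library 2 peak, which spanned 140346511 to 140346779. No other protein-coding or long noncoding gene has a start or an end within 1000 bp of these peaks. HBEGF was CM-only without DMEM library 2 or with a minimum score of 50 in every list.

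EREG, which encodes epiregulin, was CM-only, with peaks just upstream of its start on chromosome 4. The gene spans 74365145 to 74388749. CM library 1 had its peak from 74364426 to 74365031 and CM library 2 from 74364654 to 74365133, with scores of 50 and 53, at percentiles of 25.5 and 27.4. The median score of these lists was 83 in each, so both peaks ranked low. Both also lie inside LOC105377276, a long noncoding gene on the minus strand, within 1000 bp of its start at 74365341. The nearest DMEM peaks to EREG were 1110 kb away in DMEM library 1 and 153 kb away in DMEM library 2.

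BTC, which encodes betacellulin, was CM-only as well. The gene lies on chromosome 4 at 74744759 to 74794523, on the minus strand. Its start was covered by a peak from 74793465 to 74794870 in CM library 1 and by one from 74794330 to 74794546 in CM library 2. These had scores of 50 and 45 and percentiles of 25.5 and 19.3. They were 1406 and 217 bp wide, so only 73 bases of the printed window lay in both. With a minimum score of 50, the peak of CM library 2 was lost and BTC was no longer CM-only.

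**Figure D3:**
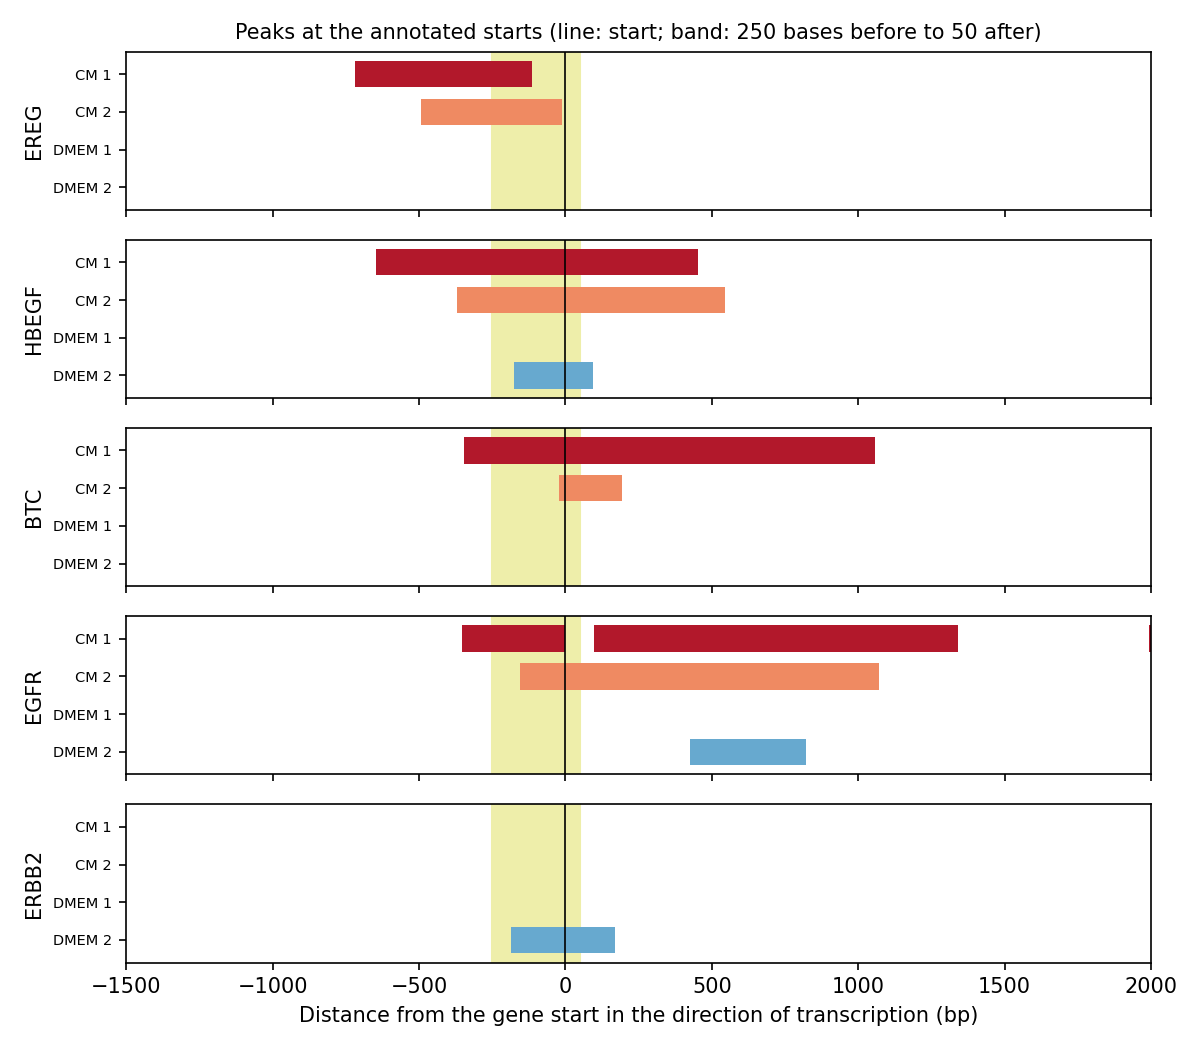
Extent of the peaks around the annotated starts of EREG, HBEGF, BTC, EGFR and ERBB2, with distance in the direction of transcription on the x axis and CM libraries above DMEM libraries in each panel. The yellow band marks 250 bases before to 50 after the start. CM bars reach the band at EREG, HBEGF, BTC and EGFR, and a DMEM library 2 bar reaches it at HBEGF and ERBB2.

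AREG and TGFA, ligands of EGFR alone among the ERBB receptors, had no peak in any library. AREG lies on chromosome 4 at 74445136 to 74455005, and its nearest peaks were 80.1 and 80.0 kb away in CM, namely those at EREG, and 1190 and 86.8 kb away in DMEM. TGFA lies on chromosome 2 at 70447284 to 70553826, and its nearest peaks were 144 and 63.8 kb away in CM and 145 kb away in both DMEM libraries. NRG1, the ligand of ERBB3 and ERBB4, spans 1134802 bp of chromosome 8, and its nearest peak lay 605 kb away in each of the 4 libraries. ERBB4 and NRG1 are among the longest genes, and 81.2% of the 69 protein-coding genes of 1000000 bp or more had no peak in any library. At an unknown depth, a missing peak means that none passed the authors' threshold, not that MYC was absent.

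The ligand genes EPGN, EREG, AREG and BTC follow one another on chromosome 4, and the stretch between AREG and BTC held peaks in CM that belong to no ligand gene by the window used. From EPGN to BTC the lists had 12 and 5 peaks in CM, of 15304 and 12797 in all, and 0 and 1 in DMEM, of 4657 and 7652 in all. Of these, 10 and 3 in CM and 0 and 1 in DMEM lay in the 289.8 kb between AREG and BTC. Merging gave 11 intervals there, 2 with peaks of the CM libraries alone, 8 with peaks of 1 CM library only and 1 with peaks of CM library 1 and DMEM library 2. Of all merged intervals, 21.8% were in both CM libraries alone and 36.0% in 1 CM library alone, and nothing particular to this stretch was tested. The interval with the highest percentiles, 46.0 in CM library 1 and 47.7 in CM library 2, ran from 74665352 to 74665742. The other interval of both CM libraries, at percentiles of 32.9 and 27.4, ran from 74539902 to 74540638. The DMEM library 2 peak, from 74541827 to 74542093, was at percentile 1.19.

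**Figure D4:**
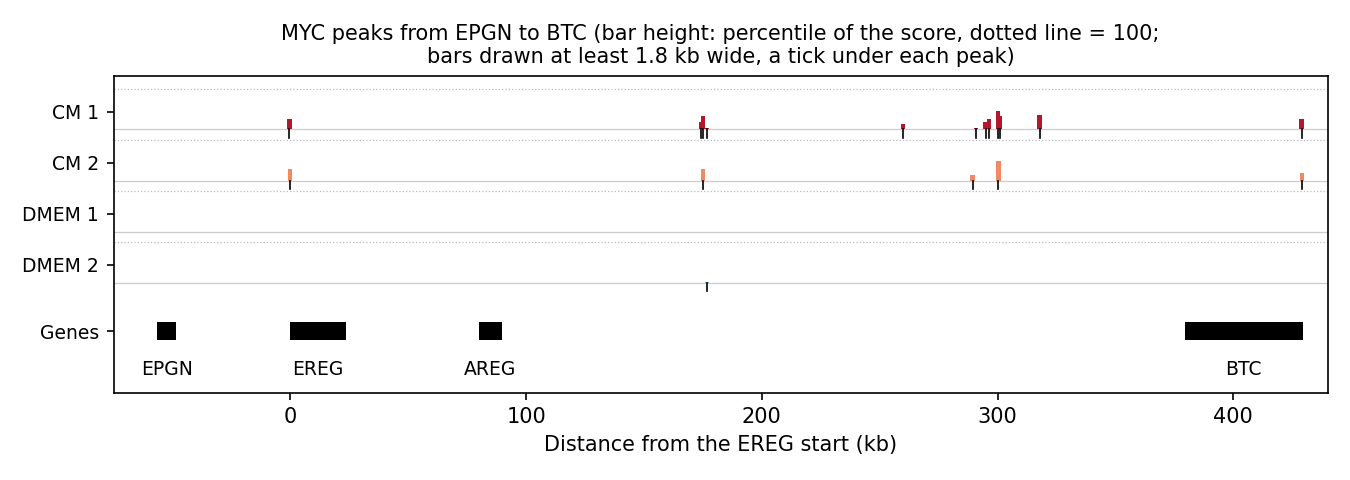
Peaks from EPGN to BTC on chromosome 4, with distance from the EREG start in kb on the x axis and 1 row per library, CM above DMEM. Bar height is the percentile of the peak's score in its list, a tick marks each peak, and black boxes are genes. CM library 1 has 12 peaks, CM library 2 has 5, DMEM library 1 has 0 and DMEM library 2 has 1, and none stands at AREG.

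The start windows held no CACGTG. Windows were found for 8 of the 10 members, all but ERBB3 and NRG1, and the table has 2 windows each for EGFR and TGFA. Among 22199 windows of protein-coding genes, 8.34% held CACGTG, which reads the same on both strands. The share was 20.2% of the windows with a peak in all 4 libraries, 7.5% of the CM-only windows and 5.82% of those with no peak. CACGCG or its reverse complement CGCGTG, found in 14.3% of all windows, was present at AREG and ERBB4, which had no peak. Over all genes, however, it was in 29.7% of the windows with a peak in all 4 libraries, 18.7% of the CM-only windows and 8.64% of those with no peak. CATGTG or CACATG, found in 8.93%, was present at the second start of EGFR and the second start of TGFA. The looser pattern CANNTG, which includes CACGTG and CATGTG, was in 65.1% of all windows. It occurred at EREG in 3 places, the first of them CAGGTG beginning 155 bases before the start and inside the peaks of both CM libraries. HBEGF had it as CACCTG beginning 248 bases before the start and BTC as CAGGTG beginning 193 bases before the start, while the first EGFR window had none. Members without a peak held it too, AREG in 2 places and TGFA in 4 over its 2 windows. Over all genes it was in 62.3% of the windows with a peak in all 4 libraries, 56.3% of the CM-only windows and 70.1% of those with no peak. These are matches of letters and not measured sites.

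The number of CpG varied among the start windows with peaks in CM. The windows of EREG and BTC each held 12 CpG dinucleotides, with a GC content of 57.7% and 63.0%. The HBEGF window held 38 and the first EGFR window 33, at 75.0% and 75.3% GC. The first EGFR window, like those of EREG and BTC, had a peak in the CM libraries alone, so the CM-only windows of the members held both low and high numbers. The median over all windows was 21 CpG and 62.3% GC. AREG, with 27 CpG, and the first TGFA window, with 30, had more CpG than EREG and BTC and no peak.

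The other genes of the pathway were counted in 4 lists, with 53 genes in all. Of these, 13 (24.5%) were bound in all 4 libraries, 11 (20.8%) in both CM and 1 DMEM library, 11 (20.8%) were CM-only, 0 were DMEM-only, 6 had another pattern and 12 (22.6%) had no peak. The shares over all protein-coding genes were those given above, with 11.7% CM-only and 49.8% without a peak. The CM-only count rests on DMEM library 2, since it was 20 of 53 genes without that library. The share of all protein-coding genes that were CM-only was then 24.4%. The count was 0 of 53 in lists of equal length, where 1.99% of all protein-coding genes were CM-only. With the authors' common lists it was 23 of 53, where 25.6% of all protein-coding genes were CM-only.

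Adaptors and relay proteins carry the receptor signal inward. Their list had the most genes bound in all 4 libraries, 8 of 19 (42.1%, against 18.0% of all protein-coding genes). Another 4 were bound in both CM and 1 DMEM library (21.1%, against 13.6%), and 4 were CM-only (21.1%, against 11.7%). Another pattern was seen for 2 (10.5%, against 6.85%), and 1, STAT5A, had no peak (5.26%, against 49.8%). The kinase gene SRC led the list, with its highest peak at percentiles of 96.5 and 97.9 in CM and 79.2 and 97.2 in DMEM, at its high-coordinate end. NCK1, an SH2 and SH3 adaptor, followed with 92.4 and 91.2 in CM and 85.6 and 88.2 in DMEM. STAT3, a transcription factor activated by the receptors, had 93.7 and 89.8 in CM and 77.0 and 92.5 in DMEM. The adaptor SHC1 had 88.5 and 87.2 in CM and 63.5 and 62.4 in DMEM. Its highest peak also lies within 1000 bp of the start or end of CKS1B, a cell cycle gene. The NCK1 peak also lies within 1000 bp of the start or end of NCK1-DT. The CM-only adaptors were GRB2, GAB1, GAB2 and EPS8, of which GRB2 links the receptors to the RAS activators SOS1 and SOS2, both bound in all 4 libraries.

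Genes of ligand release, which free the ligands from their membrane-bound precursors, had 2 of 10 bound in all 4 libraries (20.0%, against 18.0% of all protein-coding genes). RHBDF2, which encodes a partner of the protease ADAM17, had peaks at percentiles of 84.8 and 95.2 in CM and 59.8 and 69.2 in DMEM. ADAM15 had 75.8 and 86.3 in CM and 35.5 and 65.9 in DMEM. These peaks also lie within 1000 bp of the start or end of DCST1 and of ADAM15-EFNA4. ADAM17, the main protease of several of these ligands, was bound in both CM libraries at 71.9 and 54.4 and in DMEM library 2 at 39.6. ADAM9 was CM-only at 75.5 and 59.2, at a peak shared with TM2D2, and RHBDF1 was CM-only too, at 93.0 and 19.3. With a window of 500 or 2500 bp or a minimum score of 50, RHBDF1 was no longer CM-only, while ADAM9 was. Of the 5 other ligand genes, NRG2 was CM-only (20.0%, against 11.7% of all protein-coding genes). EGF, EPGN, NRG3 and NRG4 had no peak (80.0%, against 49.8%). The highest NRG2 peaks, at percentiles of 43.3 and 15.1, did not overlap.

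Inhibitors and degradation genes, which end receptor signalling, had 3 of 19 bound in all 4 libraries (15.8%, against 18.0% of all protein-coding genes). Another 6 were bound in both CM and 1 DMEM library (31.6%, against 13.6%), and 4 were CM-only (21.1%, against 11.7%). Another pattern was seen for 2 (10.5%, against 6.85%), and 4 had no peak (21.1%, against 49.8%). HGS, of the sorting machinery that takes receptors to lysosomes, had percentiles of 93.3 and 93.4 in CM and 31.4 in DMEM library 1. These HGS peaks also lie within 1000 bp of the start or end of MRPL12. SOCS5 and RASA1, a GTPase-activating protein for RAS, were bound in all 4 libraries, at 71.0 and 82.5 for SOCS5 and 85.0 and 66.7 for RASA1 in CM, against 12.0 and 49.4 for SOCS5 and 38.8 and 38.2 for RASA1 in DMEM. SH3KBP1, an adaptor in receptor uptake, had 83.9 and 71.5 in CM and 47.0 in DMEM library 2. The ubiquitin ligase CBL and the receptor inhibitor ERRFI1 were CM-only, while CBLB, CBLC, LRIG1 and LRIG3 had no peak.

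**Figure D5:**
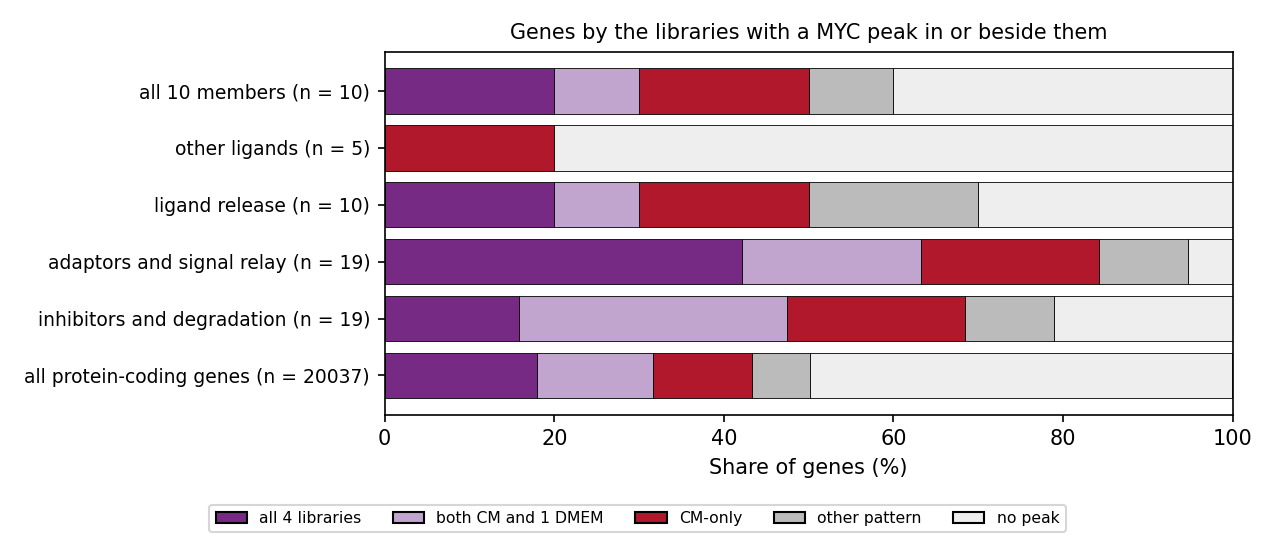
Share of genes in percent (x axis) by the libraries with a peak in or within 1000 bp of the gene, for the 10 ERBB genes, the 4 lists of other pathway genes and all protein-coding genes. The adaptor list has the largest share bound in all 4 libraries, 42.1% against 18.0% of all protein-coding genes, and the 10 ERBB genes have 20.0%.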

How the data were processed

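MYC ChIP-seq libraries of MIAPaCa2 cells were analysed from their peak lists, 2 for CM and 2 for DMEM. Each list gives a chromosome, a start, an end and a whole-number score per peak, which was used as the authors deposited it. What the score stands for is not stated in the labels. The submitters' processing notes name build GRCh38 and MACS2 2.1.1.20160309, beside Picard 2.9.0, SAMtools 1.3.1, Bowtie2 2.3.4 and Trim Galore 0.4.3. Their settings and any peak-calling control were not given in the sources used here. Read counts were not analysed here, so depth is unknown and libraries were not scaled to one another.

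Peaks were assigned with Python 3.11.15 and pandas 2.3.3 to RefSeq genes of GRCh38.p14 by an overlap of at least 1 bp with the gene or 1000 bp on either side. Calls for a condition required both libraries. Score percentiles were taken within each list, with ties averaged. Counts per library, CM minus DMEM, were tested by exact permutation of the libraries (two-sided, 6 relabellings). Gene lists have no test. The overlap rule was checked on simulated peaks. Alternatives were windows of 500 and 2500 bp, gene ends only, a minimum score of 50, lists of equal length, peak midpoints, the authors' common lists and leaving out each library. Named genes were the 10 members and, in each of 4 pathway lists, up to 4 genes with the highest mean CM percentile among those bound in both CM libraries, plus neighbours sharing a peak. Other genes named by class were chosen after their values were seen. The members and lists were chosen with earlier results of these data known.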

Additional observations from a re-analysis of the deposited data

How the results depend on the processing

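The mean difference between CM and DMEM stayed positive under every alternative that gave one. It ran from 0.5 to 3.5 for member genes with a peak and from 0.5 to 15.5 for their peaks. The authors' common lists pool the libraries of a condition and gave no such difference. No alternative could pass the threshold with so few libraries. Leaving out 1 library gave differences of 1.5 to 3.5 genes and 7.5 to 15.5 peaks, and 0 DMEM-only members. There were 2 to 3 CM-only members and 11 to 20 CM-only pathway genes, where 12.6% to 24.4% of all protein-coding genes were CM-only. The highest of these counts, 3 and 20, came without DMEM library 2, where that share was 24.4%. Members bound in every remaining library numbered 2 to 3, against 18.0% to 30.8% of all protein-coding genes. The count of 3 came without DMEM library 1, where that share was 30.8%. Of the 2 members bound in all 4 libraries, 1 remained with a window of 500 bp (EGFR) and 1 with gene ends only (ERBB3). In lists of equal length there were 0 CM-only members and 0 CM-only pathway genes, where 1.99% of all protein-coding genes were CM-only. The CM-only pathway genes numbered 11 of 53 as reported (20.8%, against 11.7% of all protein-coding genes). They numbered 7 of 53 with a minimum score of 50, where 12.3% of all protein-coding genes were CM-only. With the authors' common lists they numbered 23 of 53, where 25.6% of all protein-coding genes were CM-only. The replicate block takes differences within replicate numbers. Its mean differences are by arithmetic the same 2.5 genes and 11.5 peaks (exact sign-flip permutation p = 0.5, the smallest possible). The differences were 4 genes and 17 peaks within number 1, and 1 gene and 6 peaks within number 2. The numbers are not known to pair the libraries: the deviations of same-numbered libraries had a correlation of 0.0163 over 20037 genes. The unknown depth limits every absence of a peak.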
